A study of Mus musculus with 19 samples.

Results

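The mRNA levels of 10 genes that carry out or gate entry into M phase were followed in mouse germ cells before and at meiotic initiation: the A cyclins Ccna1 and Ccna2, the B cyclins Ccnb1, Ccnb2 and Ccnb3, the kinases Cdk1 and Plk1, the phosphatases Cdc25b and Cdc25c, and the inhibitory kinase Wee1. They were taken by symbol from the 22419 genes in the expression tables, as a set defined by function. Of the 10 genes, 9 exceeded 1 TPM (a transcript level corrected for length and library depth) in at least 1 library and were tested among 12526 genes. The tenth, Ccna1, did not.

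The 7 RNA-seq libraries came from preleptotene germ cells, the last stage before meiotic prophase, sorted from testes of male C57BL/6 mice. Stra8-deficient cells (n = 3) were from Stra8 knock-out animals, and low-STRA8 cells (n = 2) and high-STRA8 cells (n = 2) were both from Stra8 heterozygous animals. Every animal had received WIN18,446, an inhibitor of retinoic acid synthesis, each day from postnatal day 2 to 8 and retinoic acid on day 9, and testes were taken about 6.75 days later. Germ cells were marked in all groups by a tdTomato reporter switched on by Ddx4-Cre, a Cre active in the germ line. Heterozygous testes were assigned to the low or high group by STRA8 staining of a biopsy, which separates early from mid or late preleptotene testes. The low and high groups therefore differ in stage, and both differ from the deficient group in genotype, so genotype and stage cannot be told apart where deficient cells are compared. Sites bound by STRA8 were mapped with FLAG ChIP-seq on unsorted testes of Stra8 FLAG/FLAG mice (n = 3) and untagged wild-type mice (n = 3), both C57BL/6 with less than 4% 129 background and synchronized in the same way. The FLAG tag marks only the long form of the protein.

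CDK1 is the kinase that drives cells into division. It is active only when bound to an A or B cyclin and when CDC25 phosphatases have removed the inhibitory phosphates that WEE1 places on it, and PLK1 promotes that switch by acting on both sides. Cyclin A2 is made from S phase onward, cyclins B1 and B2 accumulate before mitosis, cyclin B3 is best known from meiotic cells, and cyclin A1 is a germline cyclin of late spermatocytes. Promoters of genes expressed late in the cell cycle often carry a CCAAT box, bound by NF-Y, and a cell cycle homology region (CHR), bound by the MuvB complexes that repress or activate them.

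Library depth was between 25049625 and 30015072 estimated reads. Stra8 mRNA, which checks the labels, was at 18.0, 22.8 and 5.16 TPM in the deficient libraries, at 315 and 236 TPM in the low libraries and at 1099 and 1248 TPM in the high libraries. The knock-out libraries thus still held some Stra8 transcript, and the 3 groups did not overlap. The 11 markers of pachytene and later germ cells summed to 102 to 130 TPM in deficient, 66.1 to 69.0 TPM in low and 141 to 155 TPM in high libraries, and 4 of them averaged above 1 TPM in each group, with Ybx2 highest at 65.6, 31.5 and 79.8 TPM on average. Pgk2, Acr and Adam3, from the same list, were at 0 in all 7 libraries. All 11 Sertoli cell markers averaged above 1 TPM in each group, and their summed level was 475 to 716 TPM in deficient, 124 to 506 TPM in low and 628 to 678 TPM in high libraries. Low-STRA8 replicate 2 held the 124 TPM. Summed macrophage and blood markers were at 10.2 to 21.3, 45.3 to 51.5 and 1.81 to 8.31 TPM in the same order. Markers of undifferentiated spermatogonia, which divide by mitosis, summed to 52.0 to 64.9 TPM in deficient libraries. They summed to 16.1 to 21.3 TPM in low and 22.8 to 23.8 TPM in high libraries. The sum was thus highest in the group where Ccnb1, Plk1 and Cdc25c were highest. Id4 (0.958, 0.780 and 2.02 TPM on average) and Etv5 (1.14, 1.39 and 1.34 TPM), from the same list, were not highest in deficient cells. The sum of the markers listed for differentiating spermatogonia, which also divide by mitosis, was highest in deficient cells too. It was 2437 to 3030, 1921 to 2191 and 1880 to 1940 TPM. Uchl1 was the largest part, at 1332, 996 and 933 TPM on average, so the sum leans on this gene. Kit was at 581, 391 and 469 TPM on average. Sohlh2 went the other way, highest in low cells, at 311, 344 and 283 TPM. From low to high libraries the undifferentiated sum rose and the differentiating sums overlapped, whereas Ccnb1, Plk1 and Cdc25c fell. Markers of preleptotene and leptotene cells summed to 3166 to 4962 TPM in deficient libraries. They summed to 2180 to 2328 TPM in low and 6096 to 7523 TPM in high libraries. Tex101 was a large part, at 2094, 639 and 2348 TPM on average. From deficient to low cells the means of Tex101, Sycp1, Sycp3, Smc1b and Rec8 fell, whereas those of Dmc1, Spo11 and Meiob rose. Dmc1 was at 45.4, 114 and 309 TPM. The part of any of these cells in the results was not tested.

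The promoters are shown first because the genes that fell and the genes that held or rose can be read side by side in them. RefSeq promoter windows (GRCm38.p6) were at hand for 7 of the 10 genes, and there was no entry for Ccna2, Wee1 and Cdc25c. Each sequence runs 5′ to 3′ on the strand of the gene, from 170 bases before the annotated start to 29 after it, with matches to TTTGAA (CHR) and CCAAT on either strand in capitals, so that a CCAAT box on the opposite strand reads ATTGG. No match of one motif overlapped a match of the other. Coordinates are chr13:100786457-100786656 for Ccnb1, chr9:70421525-70421724 for Ccnb2, chrX:7041590-7041789 for Ccnb3, chr10:69352883-69353082 for Cdk1 (these 4 on the minus strand) and chr7:122159265-122159464 for Plk1 (plus strand).
Ccnb1: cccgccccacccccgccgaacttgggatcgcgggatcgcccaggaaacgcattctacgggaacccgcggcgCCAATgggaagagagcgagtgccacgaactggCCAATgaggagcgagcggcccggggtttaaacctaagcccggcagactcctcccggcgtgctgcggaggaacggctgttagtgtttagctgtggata
Ccnb2: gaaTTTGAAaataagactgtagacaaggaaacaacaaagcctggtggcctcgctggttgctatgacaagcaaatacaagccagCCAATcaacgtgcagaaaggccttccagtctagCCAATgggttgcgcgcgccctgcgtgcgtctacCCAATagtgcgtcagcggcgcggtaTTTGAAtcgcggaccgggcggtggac
Plk1: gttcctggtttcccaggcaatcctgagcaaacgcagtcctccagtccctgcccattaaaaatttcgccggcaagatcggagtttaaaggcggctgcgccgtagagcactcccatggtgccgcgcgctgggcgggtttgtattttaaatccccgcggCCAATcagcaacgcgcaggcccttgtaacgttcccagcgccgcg
Cdk1: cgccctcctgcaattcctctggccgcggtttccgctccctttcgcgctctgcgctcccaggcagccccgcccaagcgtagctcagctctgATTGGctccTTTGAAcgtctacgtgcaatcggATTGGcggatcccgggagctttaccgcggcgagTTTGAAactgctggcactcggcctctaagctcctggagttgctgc
Ccnb3: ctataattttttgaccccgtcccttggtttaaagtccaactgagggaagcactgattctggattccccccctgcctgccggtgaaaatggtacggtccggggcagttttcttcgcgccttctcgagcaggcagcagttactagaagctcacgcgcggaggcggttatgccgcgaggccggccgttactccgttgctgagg

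In the full windows, from 250 bases before the start to 49 after it, Ccnb2 and Cdk1 each held 2 CHR matches and 3 CCAAT matches. Plk1 held 1 CCAAT match and 1 CHR match, the latter starting at base 30 after the start and so just past the stretch printed. Ccnb1 held 2 CCAAT matches and no CHR match, Ccna1 and Cdc25b held 1 CCAAT match each, and Ccnb3 held neither motif. Among all 32851 windows, 17.9% held TTTGAA, 37.4% held CCAAT and 6.95% held both. An E2F site, searched as TTTCCCGC, TTTCGCGC, TTTGCCGC or TTTGGCGC on both strands, was present once, in Cdk1 (2.26% of all windows). CNCCTCAG, the motif found at STRA8 summits, was in none of the 7 windows and in 7.94% of all windows. Ccnb2, which fell, and Cdk1, which did not pass the test, held the same number of CHR and CCAAT matches. The CHR was searched only as TTTGAA, so other spellings were not counted, and Ccna2, Wee1 and Cdc25c had no window. Whether the motifs go with the mRNA changes was not tested.

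Between Stra8-deficient and high-STRA8 cells the cyclins moved in opposite directions. Ccnb1, Ccnb2, Plk1 and Cdc25c fell, Ccnb3, Wee1 and, at the edge of the threshold, Ccna2 rose, and Cdk1 and Cdc25b did not pass the test. That is 3 of 9 tested members higher and 4 lower (edgeR quasi-likelihood test, Benjamini-Hochberg adjusted p under 0.05), where 18.8% of all tested genes were higher and 18.2% lower (37.1% in all). By TPM alone, the groups did not overlap for 3 members higher and 5 lower (the 4 above and Cdc25b), against 27.9% and 39.3% of all tested genes. The median log2 fold change was -0.23 over the members and -0.02 over all tested genes. The plot of TPM by library shows each value.

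**Figure D1:**
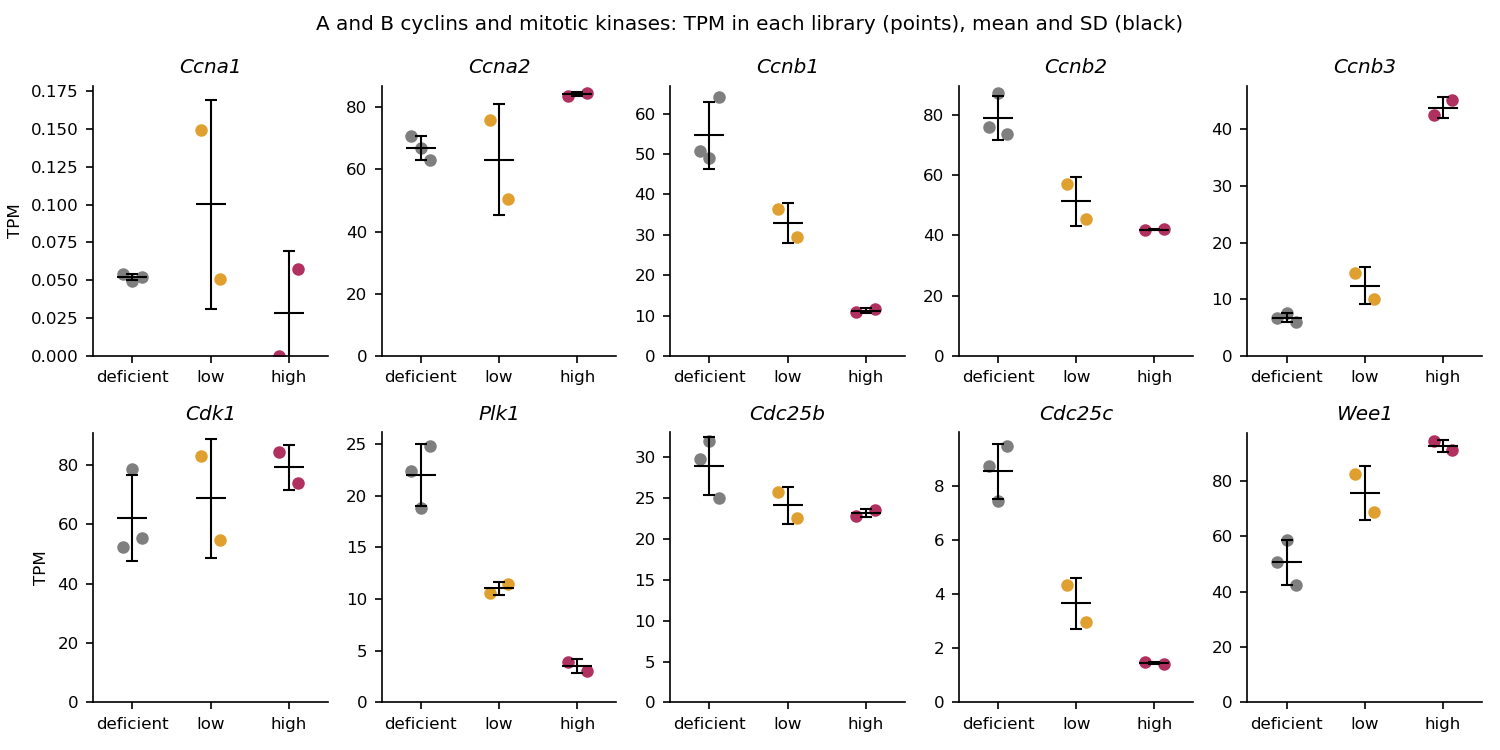
Level in TPM (vertical axes, each from 0) of the 10 genes in each library (points), with mean and SD in black, for Stra8-deficient (n = 3), low-STRA8 (n = 2) and high-STRA8 (n = 2) cells. Ccnb1, Plk1 and Cdc25c step down from group to group and Ccnb3 and Wee1 step up with no overlap, whereas Cdk1 and Cdc25b overlap between low and high cells and Ccna1 stays below 0.2 TPM.

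Ccnb1, which encodes the main mitotic partner of CDK1, was at 50.8, 49.1 and 64.2 TPM in deficient cells, 36.4 and 29.5 TPM in low cells and 10.8 and 11.7 TPM in high cells. Every high library was below every low library, and every low library below every deficient one. High cells held 22.7% of the deficient level, a log2 fold change of -2.14 ± 0.165 (SE; edgeR adjusted p = 8.36e-05), and the change from low to high cells was -1.57 ± 0.172 (edgeR adjusted p = 0.00082). From deficient to low cells the change was -0.57 ± 0.152 (edgeR adjusted p = 0.0298). That smaller step was past the threshold in 8 of 16 alternative analyses. Of the 31-base stretches in Ccnb1 transcripts, 45.9% also occurred in other annotated transcripts, 39.3% in the processed pseudogene Ccnb1-ps, so reads from these stretches are uncertain in origin. The pseudogene itself was assigned 0 to 0.467 TPM. Ccnb1 reads came mainly from ENSMUST00000072119, at 42.9% to 61.1% of the gene's TPM, and from ENSMUST00000174038, at 38.9% to 57.1%.

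Ccnb2, the other mitotic B cyclin, was at 76.1, 87.3 and 73.6 TPM in deficient cells, 57.1 and 45.5 TPM in low cells and 41.7 and 42.0 TPM in high cells. The groups were again in order without overlap, but the fall was shallower than that of Ccnb1: high cells held 55.8% of the deficient level. The log2 fold change was -0.84 ± 0.124 for high against deficient cells (edgeR adjusted p = 0.00133). It was -0.41 ± 0.134 for high against low cells (edgeR adjusted p = 0.0415) and -0.44 ± 0.122 for low against deficient cells (edgeR adjusted p = 0.0345). Those 2 steps were past the threshold in 9 and 10 of 16 alternatives. The difference in depth of the falls of Ccnb1 and Ccnb2 was not tested.

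Ccnb3, the cyclin best known from meiosis, moved the other way. It was at 6.76, 7.51 and 6.01 TPM in deficient cells, 14.7 and 10.1 TPM in low cells and 42.5 and 45.1 TPM in high cells. No 2 groups overlapped, and the high libraries stood far above the rest. The rise was 6.90-fold from deficient to high cells (log2 fold change 2.79 ± 0.157, edgeR adjusted p = 5.29e-05) and 3.33-fold from low to high cells (1.73 ± 0.174, edgeR adjusted p = 0.000634). From deficient to low cells it was 2.08-fold (1.05 ± 0.157, edgeR adjusted p = 0.00385), and all 3 steps passed in 16 of 16 alternatives. Nearly all Ccnb3 signal fell on the transcript ENSMUST00000115752, apart from Stra8-deficient replicate 1, where it took 3.20 TPM and ENSMUST00000056725 took 3.56 TPM. Ccnb3 transcripts shared no 31-base stretch with another gene.

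Ccna2, the S phase and G2 cyclin, was at 70.9, 67.0 and 62.9 TPM in deficient cells, 75.8 and 50.5 TPM in low cells and 83.8 and 84.7 TPM in high cells. The 2 low libraries spanned the whole deficient range, and only the high libraries stood clear. High cells were 1.33-fold above deficient cells (log2 fold change 0.41 ± 0.138, edgeR adjusted p = 0.0490). This call is weak: it held in 7 of 16 alternatives, with adjusted p from 0.00770 to 0.195, and was lost when any 1 of the 3 deficient or 2 high libraries was left out (adjusted p 0.0813, 0.108 and 0.0951 without deficient replicates 1, 2 and 3, and 0.178 and 0.195 without high replicates 1 and 2). Against low cells the high level did not pass (0.30 ± 0.153, edgeR adjusted p = 0.147), but it did without low-STRA8 replicate 1 (0.57 ± 0.123, edgeR adjusted p = 0.00921). Exosc9, the neighbouring gene, shares 8.91% of the 31-base stretches of Ccna2.

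Ccna1 was close to absent, with 0 to 3 estimated reads per library and at most 0.149 TPM, so no difference could be detected at this depth.

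The make-up of the A and B cyclin mRNA pool differed between the groups more than its size did. The summed level was 205, 211 and 207 TPM in deficient, 184 and 136 TPM in low and 179 and 184 TPM in high libraries. In TPM the pool was thus somewhat smaller in high than in deficient cells. That scale itself placed the median log2 fold change of all genes at -0.08 in this contrast (limma on log2(TPM + 1)), against -0.02 with edgeR. Ccnb1 made up at least 23.3% of the pool in each deficient library, 19.8% to 21.7% in low cells and 6.03% to 6.39% in high cells. Ccnb3 made up 2.91% to 3.56%, 7.44% to 7.97% and 23.7% to 24.6% in the same order. In each deficient and low library Ccnb1 mRNA exceeded Ccnb3 mRNA, and in both high libraries the order was the reverse, with 3.94 and 3.85 Ccnb3 transcripts per Ccnb1 transcript. Ccna2 was the largest part of the pool in high cells, at 46.1% to 46.9%. These shares are descriptions of levels and were not tested.

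**Figure D2:**
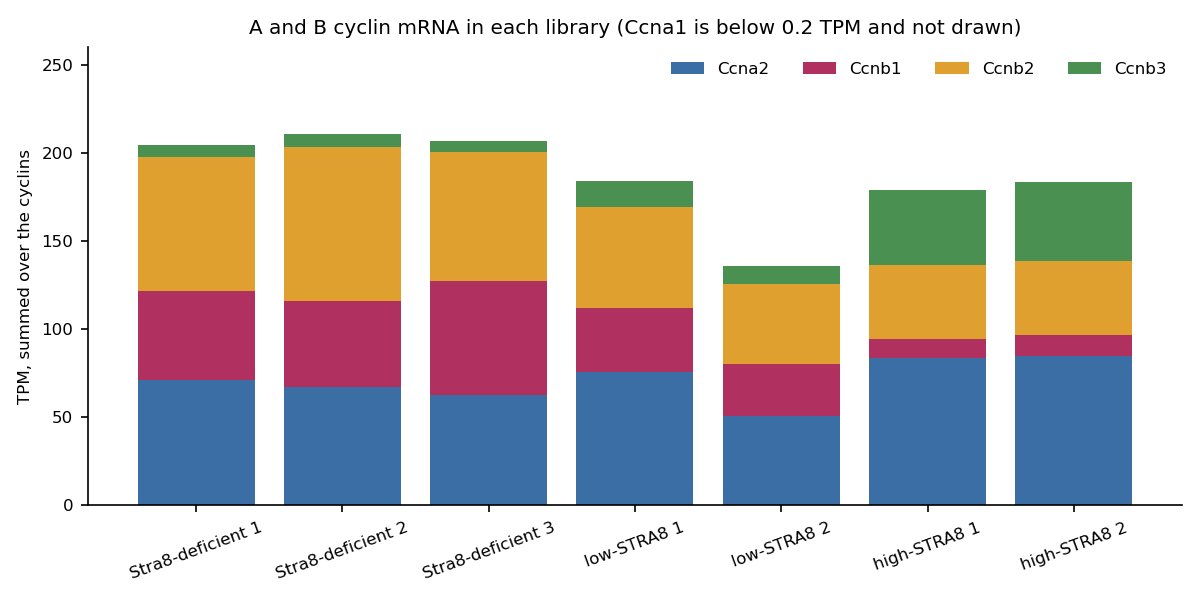
Summed TPM of the cyclins Ccna2, Ccnb1, Ccnb2 and Ccnb3 (vertical axis, stacked from 0) in each of the 7 libraries. Ccnb1 shrinks from 49.1 to 64.2 TPM in deficient libraries to 10.8 and 11.7 TPM in high libraries while Ccnb3 grows from 6.01 to 7.51 TPM to 42.5 and 45.1 TPM.

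Cdk1, the kinase that these cyclins bind, was at 52.4, 78.7 and 55.3 TPM in deficient cells, 82.9 and 54.6 TPM in low cells and 84.4 and 73.7 TPM in high cells. The 3 groups overlapped. The log2 fold change of high against deficient cells was 0.42 (95% interval -0.06 to 0.90, edgeR adjusted p = 0.151), which leaves room for a rise of the size seen in Ccna2. It passed the threshold without Stra8-deficient replicate 2 (0.62, edgeR adjusted p = 0.0478) and in none of the other 15 alternatives. High against low cells gave 0.08 (95% interval -0.45 to 0.61, edgeR adjusted p = 0.808).

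Plk1, the polo-like kinase that activates CDC25C and turns off WEE1, was at 22.4, 18.8 and 24.8 TPM in deficient cells, 10.6 and 11.5 TPM in low cells and 3.96 and 3.02 TPM in high cells. Each group lay wholly below the one before. High cells held 16.8% of the deficient level (log2 fold change -2.57 ± 0.214, edgeR adjusted p = 0.000112) and 29.2% of the low level (-1.78 ± 0.221, edgeR adjusted p = 0.00113). The step from deficient to low cells was -0.80 ± 0.193 (edgeR adjusted p = 0.0208) and passed in 12 of 16 alternatives.

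Part of the Plk1 value depends on how reads were shared with a pseudogene. Plk-ps1 holds 15.2% of the 31-base stretches of Plk1, and it was assigned 2.84, 4.16 and 3.40 TPM in deficient libraries, 0.645 and 1.23 TPM in low libraries and 3.52 and 3.35 TPM in high libraries. In high cells the pseudogene was thus assigned about as much as Plk1. If all of it belonged to Plk1, the levels would be 25.2, 23.0 and 28.2 TPM in deficient cells, 11.2 and 12.7 TPM in low cells and 7.48 and 6.37 TPM in high cells, still with no overlap between groups. The ratio of the mean TPM of deficient to high cells would then be 3.68 in place of 6.30, that of low to high cells 1.73 in place of 3.17, and that of deficient to low cells 2.12 in place of 1.99. In TPM, the larger of the successive steps would then be the one from deficient to low cells, the reverse of the order for Plk1 alone. The scale matters here: the median log2 fold change of all genes in low against deficient cells was -0.15 with limma on log2(TPM + 1) and 0.03 with edgeR. The pseudogene values were not rescaled like the gene TPM. Whether the order also reverses in edgeR was not tested.

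The CDC25 phosphatases split. Cdc25c was at 8.75, 7.46 and 9.47 TPM in deficient cells, 4.34 and 2.99 TPM in low cells and 1.49 and 1.43 TPM in high cells, or 35 and 32 estimated reads in the high libraries. The groups did not overlap. High cells held 18.0% of the deficient level (log2 fold change -2.47 ± 0.277, edgeR adjusted p = 0.000385) and 36.8% of the low level (-1.44 ± 0.288, edgeR adjusted p = 0.00604). The second of these calls was lost without high-STRA8 replicate 2 (-1.41, edgeR adjusted p = 0.0598). Low cells were below deficient cells by -1.03 ± 0.252 (edgeR adjusted p = 0.0214), and 12 of 16 alternatives passed.

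Cdc25b was at 29.7, 32.0 and 25.0 TPM in deficient cells, 25.7 and 22.5 TPM in low cells and 22.8 and 23.5 TPM in high cells. The high libraries were below the deficient ones but among the low ones. No contrast passed under any of the 16 alternatives, and the main estimate for high against deficient cells was -0.23 (95% interval -0.50 to 0.05, edgeR adjusted p = 0.178). Summed, Cdc25b and Cdc25c were at 34.4 to 39.4 TPM in deficient and 24.3 to 24.9 TPM in high libraries. The start of Spef1 lies 324 bases from that of Cdc25b on the opposite strand, and Spef1 was at 0.713 to 1.68 TPM in the 7 libraries.

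Wee1, whose kinase holds CDK1 off, was at 50.6, 58.6 and 42.4 TPM in deficient cells, 82.5 and 68.7 TPM in low cells and 94.2 and 91.2 TPM in high cells. Every low library was already above every deficient one. Low cells were 1.71-fold above deficient cells (log2 fold change 0.77 ± 0.127, edgeR adjusted p = 0.00541) and high cells 1.95-fold above them (0.96 ± 0.127, edgeR adjusted p = 0.000776), both in 16 of 16 alternatives. High against low cells did not pass (0.19, 95% interval -0.13 to 0.51, edgeR adjusted p = 0.318). Most of the Wee1 difference thus lay between deficient and low cells, which differ in genotype as well as in stage, whereas for Ccnb1, Ccnb3 and Cdc25c the larger estimate was between low and high cells. For Plk1 the larger edgeR estimate was also between low and high cells, but its order in TPM depended on the pseudogene, as given above. These differences between steps were not tested. The ratio of Wee1 to Cdc25c mRNA was 4.47 to 7.85 in deficient, 19.0 and 22.9 in low and 63.2 and 63.7 in high libraries.

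**Figure D3:**
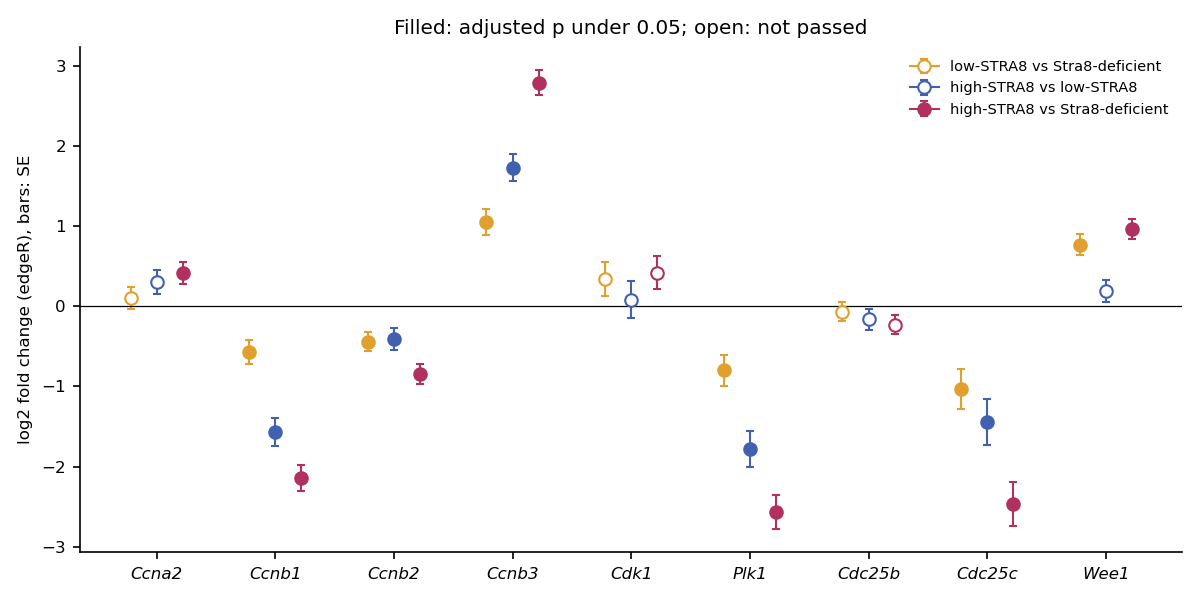
Log2 fold change (vertical axis, edgeR, bars give the SE) of the 9 tested members in the 3 contrasts, with filled points for adjusted p under 0.05. For Ccnb1, Plk1, Cdc25c and Ccnb3 the low-to-high step (blue) is larger in size than the deficient-to-low step (yellow). For Wee1 the order is the reverse. Plk-ps1 is not included here. Adding its TPM to that of Plk1 reversed the order of the Plk1 steps in TPM, and edgeR was not rerun with it.

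Within the STRA8-expressing cells alone, where genotype is the same, 1 of 9 members was higher in high than in low cells (Ccnb3) and 4 were lower (Ccnb1, Ccnb2, Plk1 and Cdc25c), against 21.4% and 18.3% of all genes (39.6% in all). By TPM alone the groups did not overlap for 3 members higher (Ccna2, Ccnb3 and Wee1) and 4 lower, against 44.2% and 30.3% of all genes. The count of lower members was 2 without high-STRA8 replicate 2, and the count of higher members 2 without low-STRA8 replicate 1. Between deficient and low cells 2 were higher (Ccnb3 and Wee1) and 4 lower, against 10.1% and 13.9% of all genes and the same 2 and 4 did not overlap in TPM, against 12.1% and 39.4%. The 4 lower calls of that contrast are the least secure: the count was 1 without deficient replicate 1 or low replicate 2, 2 without deficient replicate 3 or either high replicate, and 0 with the replicate number as a block. The 3 contrasts share libraries and are not independent. Every low library lay between the other 2 groups for Ccnb3 and Wee1 rising and for Ccnb1, Ccnb2, Plk1 and Cdc25c falling, an order shared by 4.68% of all tested genes upward and 8.43% downward. These are pools of sorted cells, in which fewer cells of a type and less RNA per cell cannot be told apart.

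The order of the levels changed with the groups. In deficient cells Ccnb2 (79.0 ± 7.26 TPM, SD, n = 3) and Ccna2 (67.0 ± 4.02) had the highest means. Cdk1 (62.1 ± 14.4), Ccnb1 (54.7 ± 8.26) and Wee1 (50.5 ± 8.12) followed, and their libraries overlapped. The Cdk1 libraries (52.4 to 78.7 TPM) also overlapped those of Ccnb2 and Ccna2, and those of Ccnb1 (49.1 to 64.2 TPM) overlapped Ccna2. In high cells Wee1 (92.7 ± 2.15 TPM, SD, n = 2) led, followed by Ccna2 (84.3 ± 0.631) and Cdk1 (79.1 ± 7.53), whose libraries overlapped. Ccnb3 (43.8 ± 1.90) and Ccnb2 (41.9 ± 0.201) came next, and Cdc25b (23.2 ± 0.467), Ccnb1 (11.3 ± 0.673), Plk1 (3.49 ± 0.665) and Cdc25c (1.46 ± 0.0421) each lay wholly below the gene before. Compared across the 7 libraries, the genes most like Ccnb1 among the 9629 genes averaging 5 TPM or more were Psme2, Polr1d and Parn (Pearson r of log2 TPM + 1 of 0.9958, 0.9952 and 0.9930). Those most like Ccna2 were Elf1, Cdkn1b and Tmem200b (0.9898, 0.9782 and 0.9772). Low-STRA8 replicate 2 was the lowest library for all of them, at 6.00, 1.80 and 2.61 TPM, and for Ccna2. Replicate 1 held 8.55, 5.42 and 8.47 TPM. The ranks of the 7 libraries were also close to those of Ccna2, with a Spearman rho of at least 0.964 for each of these genes. The likeness to Ccna2 without low-STRA8 replicate 2 was not tested. The libraries of a group share their origin, so these r values describe the pattern only.

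Of the 3 members higher in high than in deficient cells, Wee1 and Ccna2 were STRA8-bound and Ccnb3 was not. A gene was called STRA8-bound when a FLAG summit lay within 1 kb of the start of a protein-coding transcript in at least 2 of the 3 FLAG/FLAG libraries and in no wild-type library. Of the 10 genes, 2 met this rule, Wee1 and Ccna2, where 22.2% of all tested genes did. Wee1 had a summit in all 3 libraries, at 20 bases after, 120 bases after and 84 bases before its start, with scores (-log10 p, MACS2) of 29.4, 22.5 and 16.6. Ccna2 had one in replicate 1, 89 bases after its start with a score of 11.2, and in replicate 3, 31 bases before it with a score of 15.7. Replicate 2 had none there. Ccnb3 had a summit in replicate 1 only, 282 bases before its start with a score of 11.6, and so was not called. A promoter summit in at least 1 library was found for 37.9% of tested genes.

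**Figure D4:**
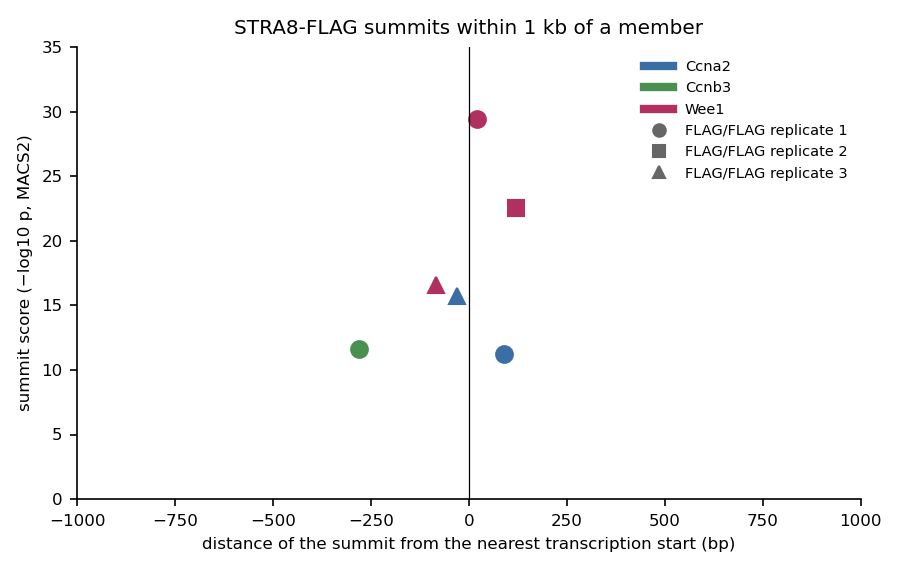
Position (horizontal axis, bases from the nearest transcription start, negative before it) and MACS2 score (vertical axis, -log10 p) of the FLAG summits within 1 kb of a member. Wee1 has a summit in each of the 3 FLAG/FLAG replicates, Ccna2 in 2 and Ccnb3 in 1, and the other 7 genes have none.

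The other 7 genes, among them the 4 that fell, had no summit within 1 kb in any FLAG/FLAG library. The nearest lay 7.99 kb away for Cdc25c, 26.5 kb for Plk1, 46.9 kb for Ccnb1 and 81.9 kb for Ccnb2. No wild-type library had a summit within 1 kb of any of the 10 genes. As a background, 56.2% of the genes higher in high than in deficient cells were STRA8-bound, and 6.87% of those lower. The FLAG/FLAG libraries held 5687, 3299 and 2035 summits, so the chance to see one differed between them, and the third was made with another library kit. Among tested genes with a promoter summit, the Wee1 score stood at percentile 78.7, 73.4 and 60.5 in replicates 1 to 3 and that of Ccna2 at 23.6 in replicate 1 and 56.8 in replicate 3. Ccna2 was no longer called without replicate 1 or without replicate 3, which left 1 bound member, and Wee1 kept its call under every alternative.

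The 100 bases around the replicate 3 summits show the sequence under the signal at the 2 bound genes, 5′ to 3′ on the strand of the gene, with TTTGAA on either strand in capitals (TTCAAA is its reverse complement). The Wee1 window is chr7:110121912-110122011 (plus strand) and the Ccna2 window chr3:36572131-36572230 (minus strand), both GRCm38.p6, the build named mm10 in the summit files' processing notes.
Wee1: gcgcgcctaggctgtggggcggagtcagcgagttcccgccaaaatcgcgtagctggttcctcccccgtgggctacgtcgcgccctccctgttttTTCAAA
Ccna2: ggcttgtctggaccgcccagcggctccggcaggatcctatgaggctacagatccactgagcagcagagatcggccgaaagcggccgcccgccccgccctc
Neither window, nor those around the other 4 member summits, held CNCCTCAG on either strand. It was present in 10.5%, 14.1% and 15.6% of such windows around all promoter summits of replicates 1, 2 and 3.

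Around these genes, 7 lists of the same pathway were described by how many of their tested genes passed in high against deficient cells (background 18.8% higher, 18.2% lower). Both directions were common among the other genes of mitotic entry. Of 26 genes of CDK1 activation and mitotic entry, 10 were higher and 7 lower, with Cdc25a, the CDC25 phosphatase that also acts at the start of S phase, 3.45-fold higher (log2 fold change 1.79 ± 0.135, edgeR adjusted p = 7.65e-05). The spindle factor Tpx2 was 1.97-fold higher and the mitotic kinase Aurkb 3.27-fold lower. The count of higher genes was 4 without high replicate 1 or high replicate 2. Of 30 genes of the anaphase-promoting complex, which destroys A and B cyclins, and its regulators, 9 were higher and 8 lower. Fbxo5, which encodes its inhibitor EMI1, was 6.15-fold higher (2.62 ± 0.321, edgeR adjusted p = 0.000569), its subunit gene Anapc10 was 2.13-fold higher and the spindle checkpoint gene Bub3 3.15-fold lower. The lower count was 5 without high replicate 1, and without high replicate 2 the counts were 4 higher and 4 lower.

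Of 24 genes listed for the transcription of G2 and M phase genes, 13 were higher and 6 lower (median log2 fold change 0.48 against -0.02 over all genes). Mybl1, the germ-cell MYB factor, was at 6.53 TPM on average in deficient and 29.8 TPM in high cells (2.44 ± 0.211, edgeR adjusted p = 0.000129), the MuvB subunit gene Lin9 was 1.89-fold higher and E2f4 1.71-fold higher. Without high replicate 1 the counts were 8 higher and 1 lower, and without high replicate 2 the lower count was 0. Of 23 genes for checkpoint kinases and 14-3-3 proteins, which act on CDC25 and WEE1, 7 were higher and 7 lower. Chek1 was 4.22-fold higher (2.08 ± 0.199, edgeR adjusted p = 0.000196) and its adaptor gene Clspn 3.34-fold higher, and Trp53 was 2.31-fold lower. The lower count of the checkpoint genes was 4 without high replicate 1 or high replicate 2.

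**Figure D5:**
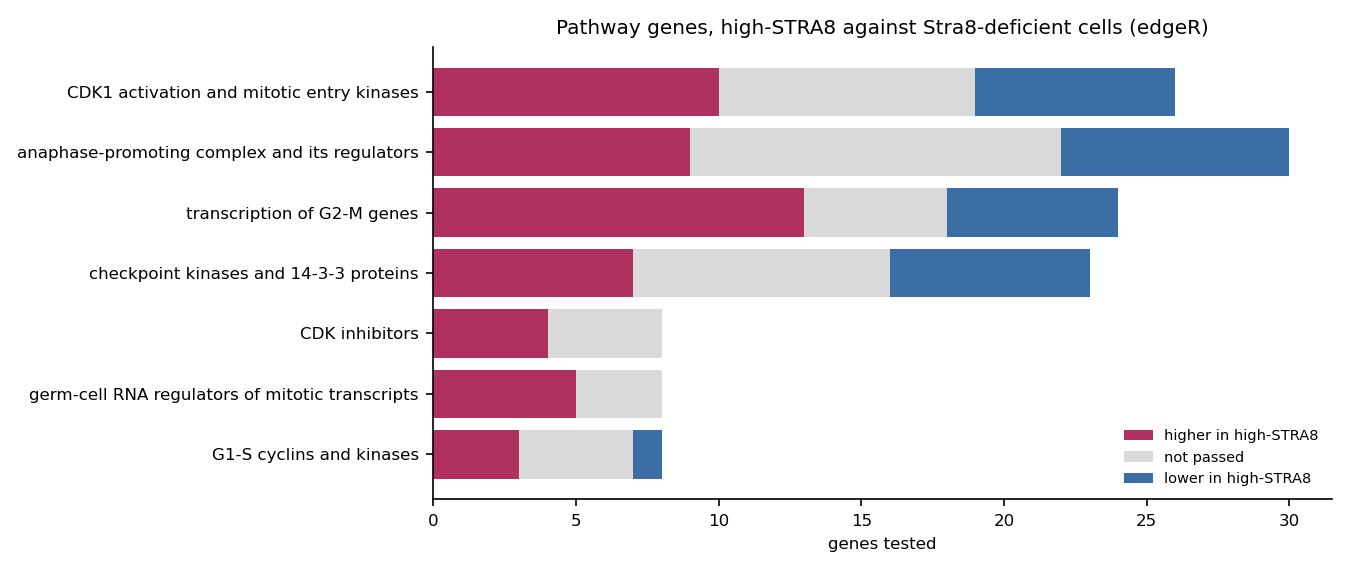
Number of tested genes (horizontal axis) in each of 7 pathway lists that were higher, not past the threshold or lower in high-STRA8 against Stra8-deficient cells (edgeR, adjusted p under 0.05). The list for transcription of G2 and M phase genes has the most higher genes, 13 of 24. The lists of CDK inhibitors and germ-cell RNA regulators have no lower gene.

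Of 8 CDK inhibitor genes, 4 were higher and none was lower, among them Cdkn3, a phosphatase that acts on CDKs (2.25 ± 0.232, edgeR adjusted p = 0.000264), Cdkn2c (2.00-fold) and Cdkn2a (1.49-fold). Of 8 genes for germ-cell regulators of mitotic transcripts, 5 were higher and none was lower, and 1 was lower without low replicate 1 or low replicate 2. Meioc and Ythdc2, which act together to clear mitotic transcripts, were 2.62-fold (1.39 ± 0.173, edgeR adjusted p = 0.000603) and 2.02-fold higher, and Mettl14 was 1.78-fold higher. Of 8 G1 and S phase cyclins and kinases, 3 were higher and 1 lower: Ccne2 was 8.81-fold higher (3.14 ± 0.253, edgeR adjusted p = 9.69e-05), Ccne1 2.16-fold higher and Ccnd1 3.97-fold lower (-1.99 ± 0.131, edgeR adjusted p = 6.18e-05). STRA8-bound genes made up 10 of the 24 G2 and M phase transcription genes and 11 of the 23 checkpoint genes. They were 6 of the 26 mitotic entry genes, 6 of the 30 anaphase-promoting complex genes and 4 of the 8 CDK inhibitors. Of the 8 RNA regulators 6 were bound, and of the 8 G1 and S phase genes 3, against 22.2% of all tested genes.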

How the data were processed

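The authors deposited, for each RNA-seq library, kallisto (version 0.43.0) transcript abundances as estimated counts and TPM, gene TPM values, and counts normalized with DESeq2 (1.18.1), a signal used here only as a side check. The libraries were stranded, poly-A selected and read at 40 bases from one end in 1 pool. The ChIP summits were deposited per library with a score that is the -log10 p of MACS2 (2.1.1.20160309, after Bowtie 1.2.0, build mm10), each library called against its input.

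Estimated counts were summed by gene (GENCODE M21) and rounded. Genes joined to the authors' gene symbols held 90.5% to 93.3% of counts, and 12526 of them were tested. Of the genes over 1 TPM, 19 were not joined. The main test was edgeR 4.0.16 (robust quasi-likelihood, TMM, R 4.3.3) on all 7 libraries, with 4 residual degrees of freedom, Benjamini-Hochberg adjustment and a threshold of 0.05. Intervals of fold changes cover 95%. Alternatives were DESeq2 1.42.0, limma 3.58.1, other scalings and filters, a replicate block and leaving out each library. The scripts were tested on simulated data.

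The members and the gene lists were chosen with earlier results of these data known. Named genes were the members, Stra8, up to 3 genes per list with the smallest adjusted p, and the genes most like Ccna2 and Ccnb1. Where shared reads were at issue, annotated transcripts were compared by 31-base stretches in place of proteins, a choice made after the data were seen. Between same-numbered libraries of different groups, deviations from the group means correlated at -0.144 to -0.0197, so the numbers do not pair the samples.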

Additional observations from a re-analysis of the deposited data

How the results depend on the processing

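Of 432 member results under 16 alternatives, 385 kept direction and side of the threshold, 39 lost and 2 gained a call, and 6 changed sign, none of them called. These were Ccna2 in low against deficient cells with limma on log2(TPM + 1) and log2(TPM + 0.1) (-0.11 in both) and without low-STRA8 replicate 1 (-0.17, against 0.33 without replicate 2), Cdc25b in that contrast without Stra8-deficient replicate 2 (0.01, against -0.13 without replicate 3), and Cdk1 in high against low cells without low-STRA8 replicate 2 (-0.15, against 0.36 without replicate 1) and without high-STRA8 replicate 1 (-0.03). All 336 values of the named list genes kept theirs. Those genes had been picked for the smallest adjusted p in the same contrast and libraries, so this was likely from the outset.

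With 1 library left out, the lone sample of an arm is assumed to vary like the other groups. Member counts then ranged from 2 to 3 higher and 4 to 4 lower for high against deficient, 1 to 2 and 2 to 4 for high against low, and 2 to 2 and 1 to 3 for low against deficient cells. Over all genes the calls ranged from 2059 to 5311 (1280 to 2679 higher, 779 to 2633 lower), 1751 to 5292 (1220 to 2947, 531 to 2345) and 1700 to 3118 (616 to 1427, 1084 to 1691) in the same order, against 4644, 4965 and 3007. The fewest in high against deficient cells came without high-STRA8 replicate 2.

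With only the 2 groups compared, low against deficient cells gave 1797 calls, 671 higher and 1126 lower, and 2 lower members in place of 4. TPM scaling with limma gave 496 higher and 2707 lower there (509 and 2729 with the smaller pseudocount) in place of 1270 and 1737, so that 15.5% of calls were higher in place of 42.2%, and moved the median of all genes to -0.15 from 0.03. In the other contrasts 40.5% and 63.6% were higher in place of 50.8% and 53.9%. The cause was not tested.

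With the replicate number as a block, although the numbers do not pair the samples, 0 members were lower in low against deficient cells, and total calls were 1844 higher and 1540 lower, 2507 and 1975, and 1044 and 1530. With the 2 low-STRA8 numbers exchanged in the block, an alternative chosen after seeing the data, 2 members were lower there and the calls were 2047 and 1884, 2731 and 2291, and 1403 and 1848. Requiring all 3 FLAG/FLAG libraries left 1 bound member, and leaving out each in turn gave 1 to 2.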
